A study of Mus musculus with 42 samples.

Results

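The genes described here are 8 transcription factors known from early or stem-like states of lymphocytes, Tcf7, Lef1, Tox, Tox2, Bach2, Myb, Id3 and Gata3. They were taken as a list and not by a cut on their values, but the list was chosen with earlier results of these data known. They are 8 of the 54353 genes in the bulk RNA-Seq count tables and 8 of the 35237 genes in the joined single-cell matrix. Tissue-resident NK (trNK) cells are lymphocytes that stay in an organ, and those of the uterus become active and multiply around the time when the uterine lining turns into decidua, a step called decidualization. The study used wild type C57BL/6 females of 8 to 12 weeks, followed uterine trNK cells through gestation, and asked what interleukin 21 (IL-21), a cytokine that signals through STAT3, does to them.

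The bulk data hold 34 libraries in 17 groups of 2, from 4 experiments. In the gestation experiment, trNK cells (CD45+, NK1.1+, NKp46+, CD49a+, CXCR6-, and by the methods negative for lineage markers that include CD3 and CD5) came from virgin females and from dams at gestation day (gd) 6.5 or 8.5. In the subset experiment, trNK cells of gd8.5 were split by their surface CD55 and 4-1BB into trNK-V (low for both, the virginal type), trNK-D (intermediate, differentiating) and trNK-T (high, terminal). In the culture experiment, trNK-V cells of gd6.5 were kept in medium that holds 10 ng/mL IL-15 by the methods, without added IL-21 (control), with 20 ng/mL IL-21 for 3 days, or with IL-21 and 1 µM Stattic (1 mM as printed in the methods), an inhibitor of STAT3 (IL-21 + iSTAT3). In the time course, trNK cells, by the study's scheme also trNK-V of gd6.5, were kept in 10 ng/mL IL-15 (15 ng/mL in another of the labels) without or with 20 ng/mL IL-21, and each arm has libraries at 0, 6, 24 and 72 h. The single-cell data are 1 pool of NK1.1+ NKp46+ cells from the uteri of virgin and gd8.5 females, and the files do not say which of the 2 conditions a cell came from. All cells of these experiments are wild type, and every result is on RNA. The sources do not say whether the 2 libraries of a group came from different animals or cultures, so each p-value measures only the spread between these libraries, which may be technical.

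Tcf7 encodes TCF-1 and Lef1 its close relative, DNA-binding proteins of the HMG-box kind that take signals from the Wnt pathway through beta-catenin and that keep early T and NK cells in a state able to renew. Tox and Tox2 encode another pair of HMG-box proteins, and Tox is needed for the development of NK cells and for the persistence of T cells under chronic stimulation. Bach2 is a repressor that holds back effector genes in T and B cells, Myb is a factor of progenitor and dividing blood cells, Id3 encodes a small protein that binds E proteins and keeps them from DNA, and Gata3 is a zinc finger factor of T cells and innate lymphoid cells that is also found in NK cells of tissues.

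Start-site sequences were looked at for letters that STAT and TCF/LEF proteins are known to bind, since IL-21 acts through STAT3 and Tcf7 and Lef1 are themselves in the list. RefSeq windows of the 250 bases before a gene's start (build GRCm38.p6) were given for 7 of the 8 genes, Tox having none, in 15 windows. The letters TTCNNNGAA, read on both strands, stood in 1 of the 15, before a start of Bach2 that lies inside the gene. TCAAAG, also on both strands, stood in 4 of the 15, of which 2 are Tox2 windows that lie 1 base apart and hold the same site. AGATAA stood in 0 of them. Over all 32851 windows of this length the shares were 7.02%, 13.8% and 9.99%. The Bach2 window is shown because it is the only one with TTCNNNGAA and because the 3 culture groups described further on did not overlap in Bach2, and the Lef1 window because it is the only one with 2 TCAAAG matches. Capitals mark the matches, and the sequences run 5′ to 3′ on the plus strand, on which both genes lie.
Bach2, chr4:32417185-32417434: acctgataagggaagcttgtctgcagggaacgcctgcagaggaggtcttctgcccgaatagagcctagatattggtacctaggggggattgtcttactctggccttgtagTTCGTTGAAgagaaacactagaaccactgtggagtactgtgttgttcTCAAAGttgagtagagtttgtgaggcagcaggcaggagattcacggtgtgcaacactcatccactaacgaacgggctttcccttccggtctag
Lef1, chr3:131156044-131156293: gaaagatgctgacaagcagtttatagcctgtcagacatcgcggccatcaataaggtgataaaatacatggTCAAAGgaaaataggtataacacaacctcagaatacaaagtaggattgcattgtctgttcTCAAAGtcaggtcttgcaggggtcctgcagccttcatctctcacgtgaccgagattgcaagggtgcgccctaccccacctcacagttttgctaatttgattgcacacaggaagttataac
The Bach2 window holds a STAT match that ends 132 bases before the start and a TCF/LEF match that ends 88 bases before it. The 2 matches of the Lef1 window end 175 and 115 bases before its start, which also lies inside the gene. No other Lef1 window held TCAAAG. A match is a description of letters and does not show binding.

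In the count tables, which use the mm10 build (GRCm38), Tcf7 (ENSMUSG00000000782) lies at chr11:52252371-52283014 on the minus strand and Lef1 (ENSMUSG00000027985) at chr3:131110471-131224356 on the plus strand. Tox (ENSMUSG00000041272) lies at chr4:6686353-6991557 on the minus strand, and Tox2 (ENSMUSG00000074607) at chr2:163203125-163324170 on the plus strand. Bach2 (ENSMUSG00000040270) lies at chr4:32238804-32586108 and Id3 (ENSMUSG00000007872) at chr4:136143497-136145755, both on the plus strand. Myb (ENSMUSG00000019982) lies at chr10:21124935-21160984 and Gata3 (ENSMUSG00000015619) at chr2:9857078-9890034, both on the minus strand. Reads were counted over exons. Over 15 pairs of a listed gene with a relative, the longest stretch of identical transcript bases was 24, shared by Tox and Tox3, and Tcf7 and Lef1 shared at most 18.

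Library totals ranged from 28541369 to 66468883 counts in the time course and from 11862089 to 29537298 in the other experiments. Levels are counts per kilobase of exon and 1000000 counts (RPKM), after scaling of library sizes by TMM, so they can be set side by side between genes. A gene was called changed when its adjusted p (edgeR quasi-likelihood test, Benjamini-Hochberg over all genes kept) was below 0.05 and its fold change was above 2. Fold changes are given as log2 values with their standard errors (SE). In bulk RNA, fewer cells that express a gene and less RNA of it per cell cannot be told apart.

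Of the 8 genes, 7 had enough counts to be tested in each experiment. Tox2 was at 0 in 32 of the 34 libraries and had at most 2 counts in the remaining ones, so it was not detectable at this depth. Tcf7 had the widest range among these libraries, from 0.349 to 75.6 RPKM. Gata3 ranged from 0.921 to 26.8, Tox from 1.8 to 25.2 and Lef1 from 0.639 to 8.6 RPKM, and none of these 4 was at 0 in any library. Id3 ranged up to 14.1 RPKM and was at 0 in 6 libraries. Bach2 reached 5.19 RPKM with 1 library at 0, and Myb reached 4.9 RPKM with 3 libraries at 0. Fold changes are set within an experiment only, since each was fitted on its own. Gata3, for example, stayed between 0.921 and 3.48 RPKM in the time course and above 8 RPKM in every library of the other experiments.

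Among the sorted subsets of gd8.5, Tcf7 and Tox were lower in trNK-T than in trNK-V while Myb was higher. These 3 were called of the 7 genes tested, against 6.75% of all 14335 genes tested in that comparison. Lef1, the relative of Tcf7, had values that ran the other way and did not pass the threshold.

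Tcf7 was at 33.5 and 50.4 RPKM in the 2 trNK-V libraries, at 14.3 and 12.3 in trNK-D and at 3.14 and 0.349 in trNK-T. The 3 groups did not overlap, and the order was V, D, T from high to low. From trNK-V to trNK-T the level was 23.5-fold lower (log2 -4.56, SE 0.85, adjusted p = 0.0308, edgeR). From trNK-D to trNK-T the log2 difference was -2.9 (SE 0.8, adjusted p = 0.28), which did not pass. It ranged from -5.25 to -2.09 over the alternatives. The pair of trNK-T libraries differed by the largest ratio in Tcf7 among these 3 groups. Without either trNK-V library the call of Tcf7 was lost, and its adjusted p ranged from 1.25e-33 to 0.0868 over 13 alternatives. The log2 difference was -6.89 without trNK-T library 1 and -3.73 without trNK-T library 2, the ends of its range.

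Lef1 stood at 1.02 and 2.83 RPKM in trNK-V, at 2.23 and 4.83 in trNK-D and at 6.39 and 8.6 in trNK-T. Both trNK-T libraries were above all others, while trNK-V and trNK-D overlapped. The log2 difference of trNK-T from trNK-V was 1.96 (SE 0.58, adjusted p = 0.0873). Lef1 passed in some of the alternatives, among them the replicate number as a block (log2 2.13, adjusted p = 0.0324, edgeR). Its log2 difference ranged from 1.41 to 2.89 over the alternatives. The ratio of Tcf7 to Lef1, both per length, was 32.8 and 17.8 in trNK-V, 6.41 and 2.55 in trNK-D and 0.491 and 0.0406 in trNK-T. So trNK-V and trNK-D libraries held more Tcf7 than Lef1, and both trNK-T libraries held more Lef1 than Tcf7.

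Tox was at 21.6 and 25.2 RPKM in trNK-V, at 15.2 and 8 in trNK-D and at 3.59 and 2.18 in trNK-T. As with Tcf7, the 3 groups did not overlap and the order was V, D, T. The level in trNK-T was 8.11-fold below that in trNK-V (log2 -3.02, SE 0.39, adjusted p = 0.0152). The neighbouring steps did not pass, with a log2 difference of -1.02 (SE 0.36, adjusted p = 0.352) from V to D and of -2 (SE 0.38, adjusted p = 0.177) from D to T. The call of Tox was lost without trNK-V library 2 or without trNK-T library 2, and its adjusted p ranged from 1.98e-26 to 0.077 over 13 alternatives.

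Gata3 was at 17.4 and 24.4 RPKM in trNK-V, at 17.2 and 13 in trNK-D and at 8.38 and 10.6 in trNK-T. The trNK-T libraries were the lowest, with a log2 difference from trNK-V of -1.14 (SE 0.28, adjusted p = 0.0553) and from trNK-D of -0.67 (SE 0.28, adjusted p = 0.426). Neither passed the threshold.

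Myb was at 0.655 and 0.21 RPKM in trNK-V, at 1.5 and 2.01 in trNK-D and at 3.17 and 4.07 in trNK-T. The groups did not overlap and the order was T, D, V, the reverse of Tcf7 and Tox. Myb was 8.34-fold higher in trNK-T than in trNK-V (log2 3.06, SE 0.6, adjusted p = 0.034), while the step from V to D (log2 2.02, SE 0.58, adjusted p = 0.317) did not pass. The call of Myb was lost in 4 of 12 alternatives, namely with the replicate number as a block (adjusted p = 0.0521) and without trNK-V library 2, trNK-T library 1 or trNK-T library 2. Mki67, a gene of dividing cells, was at 5.23 and 5.76 RPKM in trNK-V, 2.77 and 13.9 in trNK-D and 8.17 and 11.4 in trNK-T. Of 7 genes of dividing cells 0 were called in trNK-T against trNK-V, with a median log2 difference of 1.36, and their part in the level of Myb was not tested. The log2 difference of Myb was 4.11 without trNK-V library 1 and 2.47 without trNK-V library 2, the ends of its range.

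Bach2 was at 0.51 and 2.12 RPKM in trNK-V, at 1.38 and 0.7 in trNK-D and at 0.474 and 0.424 in trNK-T. Id3 was at 5.12 and 2.31 RPKM in trNK-V, at 2.74 and 1.84 in trNK-D and at 1.01 and 2.41 in trNK-T. Neither gene had an unadjusted p below 0.05 in a comparison of subsets. Between trNK-D and trNK-V, 0 of the 7 genes were called in edgeR, against 0.00698% of all genes tested. An unadjusted p below 0.05 was found for 2 of the 7, against 1763 of all 14335 genes. Between trNK-T and trNK-D, 0 were called, against 0.0767%. There 3 of the 7 had an unadjusted p below 0.05, against 1654 of all 14335 genes.

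**Figure D1:**
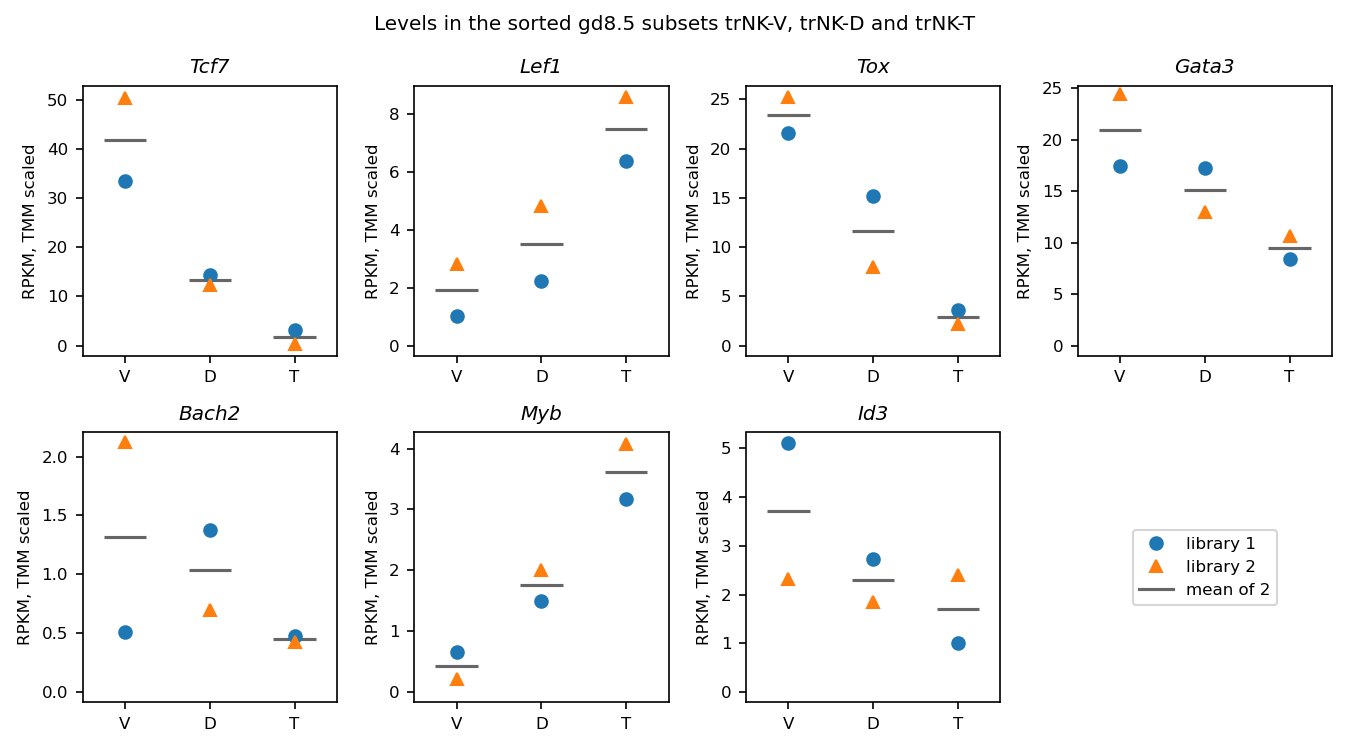
Levels of 7 transcription factors in RPKM (linear y axis) by sorted gd8.5 subset (V, D and T for trNK-V, trNK-D, trNK-T), with 1 point per library (circle, library 1; triangle, library 2) and a line at the mean of 2. Tcf7 runs from 33.5 and 50.4 in trNK-V to 3.14 and 0.349 in trNK-T, Tox runs the same way, and Myb runs from 0.655 and 0.21 up to 3.17 and 4.07.

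Other genes of early lymphocytes were counted in the same comparison, where 6.75% of all genes were called. Of 16 tested genes of that kind, 6 were called lower and 0 higher in trNK-T than in trNK-V and 10 did not pass, with a median log2 difference of -1.66 against -0.05 over all genes. Among them were the costimulatory receptor Cd27 (log2 -3.9, adjusted p = 0.0104) and the chemokine Xcl1 (log2 -2.68, adjusted p = 0.00254). Xcl1 was also called lower in trNK-T than in trNK-D (log2 -2, adjusted p = 0.0194).

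Direct relatives of the listed factors were also counted in trNK-T against trNK-V, where 6.75% of all genes were called. Of 10 tested relatives, co-factors and targets of TCF-1 and LEF1, 1 was called lower, the co-repressor Tle3 (log2 -1.4, adjusted p = 0.0477), with a median of -0.41. Of 2 tested relatives of TOX and GATA factors 0 were called (median -0.81), of 5 E and Id proteins 0 (median -0.16), and of 9 relatives and partners of Bach2 and Myb 0 (median -0.87). Of 14 effector-state factors, 1 was called higher, Prdm1 (log2 1.96, adjusted p = 0.0372), which encodes the repressor Blimp-1. Called lower were 4, among them Zeb2 (log2 -3.94) and Zfp683 (log2 -2.95), which encodes Hobit, a factor of tissue residency.

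Markers of other cells were measured beside these values. Of 13 T cell markers 8 were tested, and 2 of those, Cd3d and Cd3g, were called lower in trNK-T than in trNK-V (log2 -4.26, adjusted p = 0.035, and log2 -2.16, adjusted p = 0.0122). Cd3d was at 46.6 and 42.2 RPKM in trNK-V, 10.2 and 35.4 in trNK-D and 3.74 and 0.808 in trNK-T. The summed level of the 13 markers ranged over 1670 to 1750 RPKM in trNK-V, 1330 to 1490 in trNK-D and 1160 to 1200 in trNK-T. Most of that sum came from the T cell receptor constant genes Trbc1, at 790 to 1190 RPKM over the 6 libraries, and Trbc2, at 227 to 385. Trac was at 10.8 to 33.5 RPKM and Cd28 at 12.8 to 19.7. Cd3e was at 0 in 4 of 6 libraries and at most 1.18 RPKM, Cd4 was at 0 in 5 of 6 and Cd8a in all 6, Cd5, Cd6 and Bcl11b stayed below 1 RPKM, and Cd8b1 was at 0 in 4 of 6 and reached 13.9. Markers of conventional NK cells (cNK), a circulating type, also moved, with 6 of 10 called lower and a summed level of 1650 to 2690 RPKM in trNK-V against 395 to 479 in trNK-T. Of 6 markers of ILC1, another resident innate lymphocyte, 5 were tested and 1 was called lower, Tmem176b (log2 -5.28, adjusted p = 0.0134), with a summed level of 29.6 to 59.8 RPKM in trNK-V, 28.3 to 31.3 in trNK-D and 2.71 to 7.33 in trNK-T. Of 6 NK markers 3 were called lower, Klrk1, Klrb1c and Klrd1, with a summed level of 8390 to 8930 RPKM in trNK-V against 4310 to 5200 in trNK-T. The stromal marker Dcn was also called lower in trNK-T than in trNK-V (log2 -4.3, adjusted p = 0.0477, edgeR). Summed macrophage markers were at 23.5 to 27.7 RPKM in trNK-V, 48.7 to 51.5 in trNK-D and 11.2 to 17.3 in trNK-T. Those of neutrophils and monocytes were at 322 to 564, 619 to 671 and 164 to 312. The part of T cells, cNK cells, ILC1 or other cells in the levels of Tcf7, Tox and Myb was not tested.

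The single-cell pool gives the same genes cell class by cell class. After limits of 200 to 2500 genes per cell and under 10% mitochondrial counts, 8909 of 15175 cells were kept, with a median of 2576 unique molecule (UMI) counts per cell. The limits left out 4168 cells with more than 2500 genes, whose median was 11188.5 UMIs. The 8 genes were left out of the clustering. With 1 pool there is no replicate and no test, and the intervals in square brackets are exact Poisson 95% intervals of levels from summed UMIs, which cover counting error only. Over all kept cells Tcf7 was at 83.6 CPM (UMI counts per 1000000 UMIs of the class) [80.2, 87.0], Gata3 at 62.5, Lef1 at 47.1, Tox at 46.8, Myb at 44.9, Bach2 at 24.5 and Id3 at 19.7. Tox2 had 13 UMIs in all, or 0.463 CPM.

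Clusters 1 and 2, together 1461 cells, were terminal trNK-like by granzymes such as Gzmd and Gzme. There Tcf7 was at 3.95 CPM [2.66, 5.63] and Tox at 6.31 [4.65, 8.37], while Lef1 was at 53.3 [48.2, 58.7] and Myb at 72.3 [66.4, 78.6]. The clusters differed, with Tcf7 at 1.97, Tox at 1.72 and Lef1 at 66.0 in cluster 1, and Tcf7 at 6.21, Tox at 11.6 and Lef1 at 38.6 in cluster 2, which counted 3 terminal markers (Gzmd, Gzme, Gzmf) against 6 in cluster 1. Myb was at 72.9 and 71.6. Tcf7 in these cells was no higher than in macrophage-like cells (13.1 [9.19, 18.2]) and stromal-like cells (14.5 [6.26, 28.6]). Those classes also held the NK gene Ncr1, at 61.6 and 65.3 CPM, so they are not a clean background. With limits of 200 to 2500 set on UMIs, which leave 256 terminal trNK-like cells, Tcf7 was at 27.3 [13.6, 48.9], above B cell-like (7.76) and stromal-like cells (11.3) and close to macrophage-like cells (23.5), with overlapping intervals. Lef1 in these cells was above its level in macrophage-like (5.1 [2.79, 8.56]) and stromal-like cells (7.25 [1.98, 18.6]), and so was Myb (6.93 and 10.9). Median depths were 5633.5 and 5351 UMIs per cell in the 2 terminal trNK-like clusters, 2970 in the macrophage-like and 2441 in the stromal-like cells.

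Gata3 stood at 42.0 [37.5, 46.8] in the terminal trNK-like cells and at 13.9 [9.8, 19.0] in the macrophage-like cells. Bach2 (8.29), Id3 (0.789) and Tox2 (0.132) were low in the terminal trNK-like cells. The terminal trNK-like cells thus held more Lef1 and Myb than Tcf7 and Tox.

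Most of the other NK cells stayed without a class name, since they had too few counting markers or leading genes that went against the name. The unnamed clusters 9, 11 and 4 held Eomes and Itga1, genes of uterine trNK cells. In cluster 9 Tcf7 was at 196 CPM [179, 214] and Tox at 122, with Lef1 at 30.3 and Myb at 29.5. In cluster 11 Tcf7 was at 219 [199, 241] and Tox at 131, with Lef1 at 27.9 and Myb at 32.5, and in cluster 4 Tcf7 was at 148 [130, 168], Tox at 100 and Myb at 44.7. Cluster 5 lay between, with Tcf7 at 34.6 [27.7, 42.7], Tox at 41.4, Lef1 at 37.8 and Myb at 59.2. Across these 4 clusters and the 2 terminal trNK-like ones, the clusters with more Tcf7 held more Tox and less Myb than those with less, except that clusters 9 and 11 lay close together. The unnamed cluster 10 (1020 cells) carried Ncr1 and Eomes beside markers of cNK and mast cells. Its Tcf7 (49.7) and Tox (54.3) lay between those of clusters 5 and 4, while its Myb (38.3) was below both.

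T cell-like cells (597 cells, clusters 12 and 13) had the highest Tcf7 of the named classes, at 469 [433, 508], and the highest Lef1, at 327 [296, 359]. Tox was at 110, Gata3 at 166, Bach2 at 74.8 and Id3 at 46.8 there. The 2 clusters differed, with Tcf7 at 899 and Lef1 at 699 in cluster 13, which carries Cd4 and Cd8a, and at 140 and 41.3 in cluster 12, led by gamma delta T cell genes. Cluster 12 also carried Ncr1, which encodes the NKp46 used in the sort. In the dividing-like cells (473 cells) Tcf7 was at 70.7, Tox at 34.4, Lef1 at 39.2 and Myb at 68.8 [58.0, 81.0]. Myb there and in the terminal trNK-like cells had overlapping intervals. These levels depend on the limits. With no upper limit on genes, 1616 cells were dividing-like, with Tcf7 at 27.7 [25.4, 30.3] below Lef1 at 54.7 [51.4, 58.2]. Their Myb was at 78.3 [74.3, 82.5], against 86.7 [82.9, 90.6] in terminal trNK-like cells. With limits on UMIs (99 dividing-like cells) Tcf7 was at 58.7 and Lef1 at 14.7, and at resolution 0.4 they were at 75.8 and 42.5.

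Bach2 was highest in the 305 B cell-like cells, at 233 [197, 274], where it is known to act, and Id3 was highest in the 205 stromal-like cells, at 283 [240, 331], followed by the B cell-like cells at 79.3. In the 86 interferon response cells, which also carried the NK genes Ncr1 and Eomes, Tcf7 was at 180 and Tox at 143.

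**Figure D2:**
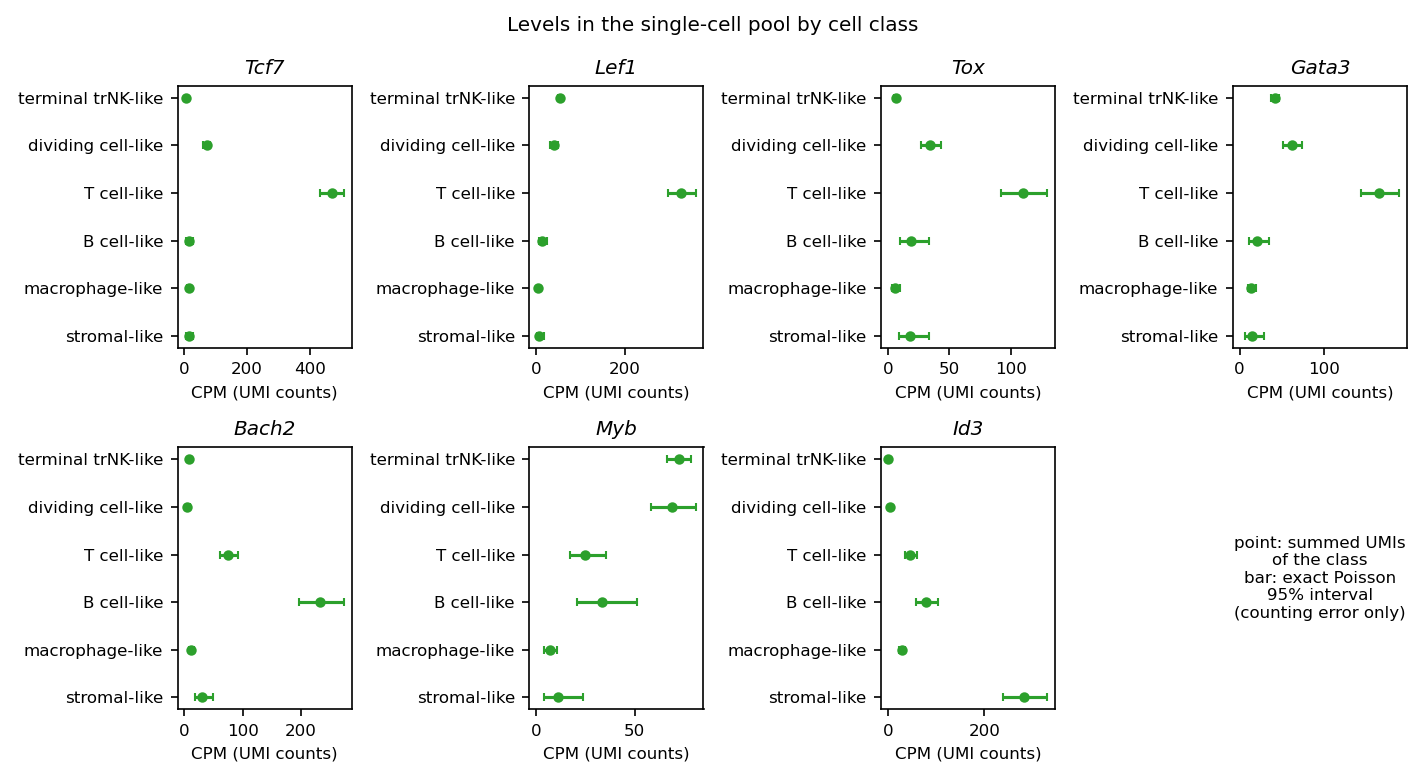
CPM of UMI counts (linear x axis, a scale of its own for each gene) of 7 transcription factors summed over 6 named cell classes of the single-cell pool, with exact Poisson 95% intervals for counting error only. Under these limits on genes per cell, terminal trNK-like cells are lowest for Tcf7 (3.95), an order that turns with limits on UMIs (27.3), and among the highest for Myb (72.3), T cell-like cells are highest for Tcf7 (469) and Lef1 (327), B cell-like cells for Bach2 (233) and stromal-like cells for Id3 (283).

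In the gestation experiment 0 of the 7 tested genes were called in edgeR in any of the 3 comparisons. The background was as low, with 0.0356% of genes called at gd6.5 against virgin, 0.0356% at gd8.5 against virgin and 0% at gd8.5 against gd6.5. At an unadjusted p below 0.05 there were 2, 1 and 0 of the 7 genes, against 2415, 1407 and 1637 of all 14040 genes. DESeq2 called 2 of the 21 combinations of gene and comparison, and its share over all genes is not given here.

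Tcf7 was at 75.6 and 13.5 RPKM in the virgin libraries, while the gd6.5 libraries held 4.71 and 9.16 and the gd8.5 libraries 11.5 and 8.23. Both virgin libraries were above all 4 of gestation, but they differed widely from each other. The log2 difference from virgin was -2.69 (SE 0.77, adjusted p = 0.164) at gd6.5 and -2.17 (SE 0.76, adjusted p = 0.438) at gd8.5. Over the alternatives these log2 values ranged from -3.43 to -0.96 and from -2.94 to -0.45. Virgin library 1 stood apart in other genes as well, with Cd3g at 176 RPKM against 28.7 in library 2, Cd3d at 78.4 against 1.74, and the granzyme Gzme at 0 against 323. Its summed markers of ILC1 were at 44 RPKM against 12.6, and those of gamma delta T cells at 548 against 395. Summed markers of B cells were at 452 against 238 and of neutrophils and monocytes at 349 against 236. Those of macrophages were lower, at 15.9 against 27.2. The summed T cell markers were at 1630 RPKM in virgin library 1 and 1750 in library 2. Most of that sum was Trbc1 (1010 and 1240) and Trbc2 (313 and 447). Cd3g was at 95.5 and 137 RPKM in the gd8.5 libraries. Cd3e was at 0 in both virgin libraries, and the sort was for cells without surface CD3 and CD5. Virgin library 1 was also counted over another set of genes, 55573 gene IDs against 54446 in library 2 and in each other library. Levels of all libraries use exon lengths from the smaller set. The part of this difference, or of T cells, ILC1 or other cells, in the level of Tcf7 was not tested.

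Tox was at 21.1 and 6.22 RPKM in the virgin libraries, 7.74 and 9.68 at gd6.5, and then 8.06 and 7.34 at gd8.5. Gata3 was at 18.9 and 8.6 in virgin, 16 and 13.9 at gd6.5, and then 10 and 9.78 at gd8.5. For both genes the 2 virgin libraries lay on either side of the 4 gestation libraries. Lef1 was at 3.36 and 3.86 RPKM in virgin, 6.43 and 3.89 at gd6.5, and then 2.84 and 3.58 at gd8.5, a range in which virgin and gd8.5 overlapped.

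Myb was at 0.883 and 2.53 RPKM in virgin, 4.9 and 3.81 at gd6.5, and then 2.65 and 1.8 at gd8.5. Both gd6.5 libraries were the highest, with a log2 difference from virgin of 1.36 (SE 0.51, adjusted p = 0.249). Id3 was at 6.11 and 0.914 RPKM in virgin, 7.76 and 14.1 at gd6.5, and then 6.3 and 6.69 at gd8.5, again highest at gd6.5 but with a wide spread in virgin. Bach2 stayed low, between 0.173 and 0.677 RPKM.

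**Figure D3:**
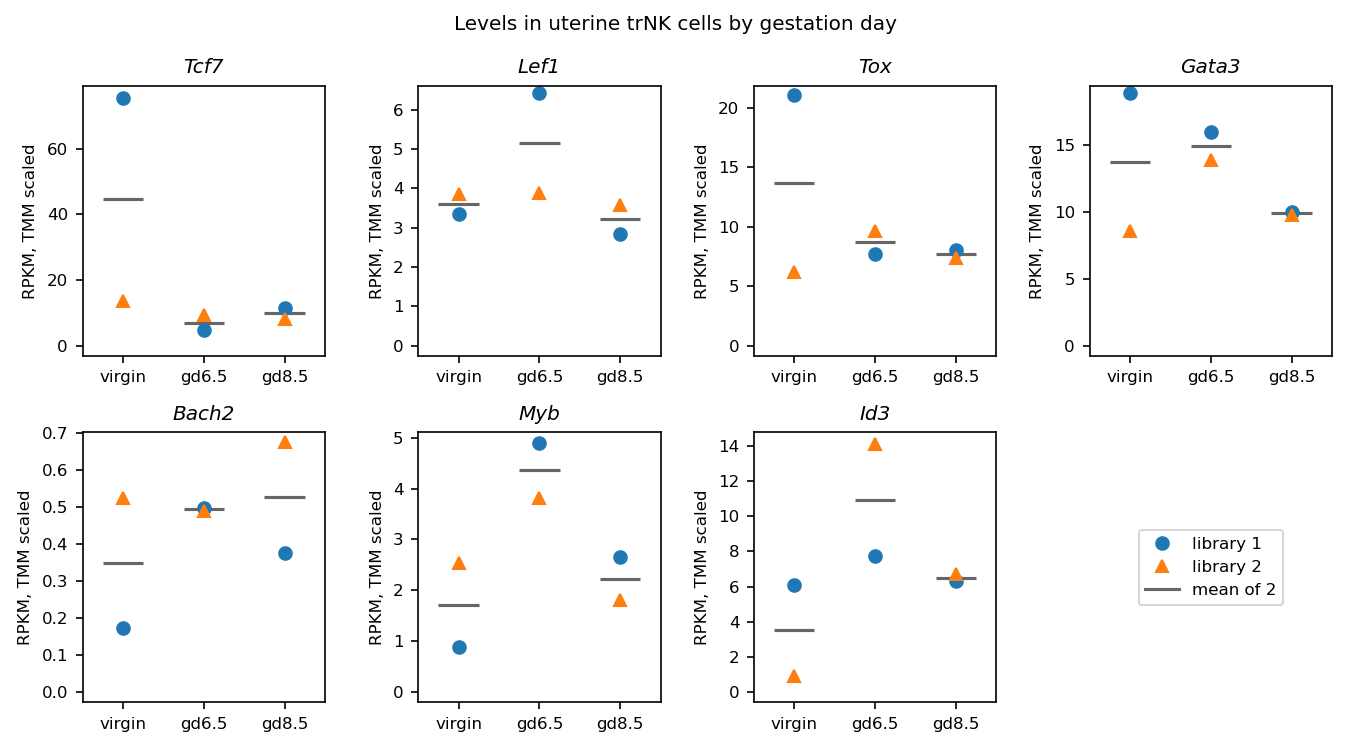
Levels of 7 transcription factors in RPKM (linear y axis) in uterine trNK cells by gestation day (virgin, gd6.5, gd8.5), with 1 point per library and a line at the mean of 2. The 2 virgin libraries lie far apart for Tcf7 (75.6 and 13.5), Tox (21.1 and 6.22) and Id3 (6.11 and 0.914), and the 2 gd6.5 libraries are the highest for Myb (4.9 and 3.81).

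In the culture experiment 0 of the 7 tested genes were called in edgeR. The background was 0% of 13647 genes for IL-21 against control, 0.00733% for IL-21 + iSTAT3 against IL-21 and 0.154% for IL-21 + iSTAT3 against control. At an unadjusted p below 0.05 there were 2, 2 and 1 of the 7 genes, against 710, 1735 and 1986 of all 13647 genes. DESeq2 called 4 of the 21 combinations of gene and comparison, and its share over all genes is not given here.

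The 2 control libraries of Bach2 were at 2.58 and 1.37 RPKM, the IL-21 libraries at 0.457 and 0.296 and the IL-21 + iSTAT3 libraries at 3.32 and 4.62. The 3 groups did not overlap, with IL-21 lowest and the inhibitor highest. The log2 difference was -2.39 (SE 0.6, adjusted p = 0.607) for IL-21 against control and 3.4 (SE 0.63, adjusted p = 0.143) for the inhibitor against IL-21 alone, neither of which passed in edgeR. DESeq2 gave adjusted p = 0.023 and 2.53e-05 for these 2 comparisons. Most alternatives did not call Bach2, which passed in 1 of 12 for the first comparison and in 2 of 12 for the second. Its log2 difference ranged from -2.77 to -1.87 and from 3.12 to 3.74 over them. The Bach2 window with the STAT match printed above belongs to this gene, and the data do not test that site.

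Tcf7 was at 35.2 and 42 RPKM in control, at 24.3 and 23.4 with IL-21 and at 26.8 and 64.9 with IL-21 + iSTAT3. The IL-21 libraries were the lowest, and the inhibitor libraries spread on either side of control. Gata3 was also lowest with IL-21, while its inhibitor and control libraries overlapped, at 17.4 and 24.3 in control, 9.52 and 14.6 with IL-21 and 26.8 and 17.9 with the inhibitor. Tox was at 8.88 and 7.48 RPKM in control, 3.65 and 4.87 with IL-21 and 5.32 and 4.33 with the inhibitor, so its inhibitor libraries stayed below control. The log2 difference of Tox for IL-21 against control was -0.94 (SE 0.37, adjusted p = 0.945).

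Lef1 was at 1.27 and 3.12 RPKM in control, 1.37 and 3.3 with IL-21 and 5.85 and 3.8 with the inhibitor. Control and IL-21 overlapped, and both inhibitor libraries were above them. Myb stayed between 0.295 and 1.64 RPKM. Id3 was at 0 and 3.83 RPKM in control, at 8.87 and 3.37 with IL-21 and at 0 in both inhibitor libraries. Against the floor of 3 counts per library, Id3 with the inhibitor was at least 75.6-fold lower than with IL-21 alone (fitted log2 -10.67, adjusted p = 0.341). The mean of control was 23.7-fold above the floor (fitted log2 -9, adjusted p = 0.314, edgeR), through 1 of the 2 control libraries. Since the other control library was at 0 as well, this value is no lower bound. The fit called neither comparison. All-or-none values were not rare in these libraries, since 500 of the 13647 genes kept were at 0 in 1 control library and at 50 or more counts in the other, against 79 with IL-21 and 736 with IL-21 + iSTAT3.

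**Figure D4:**
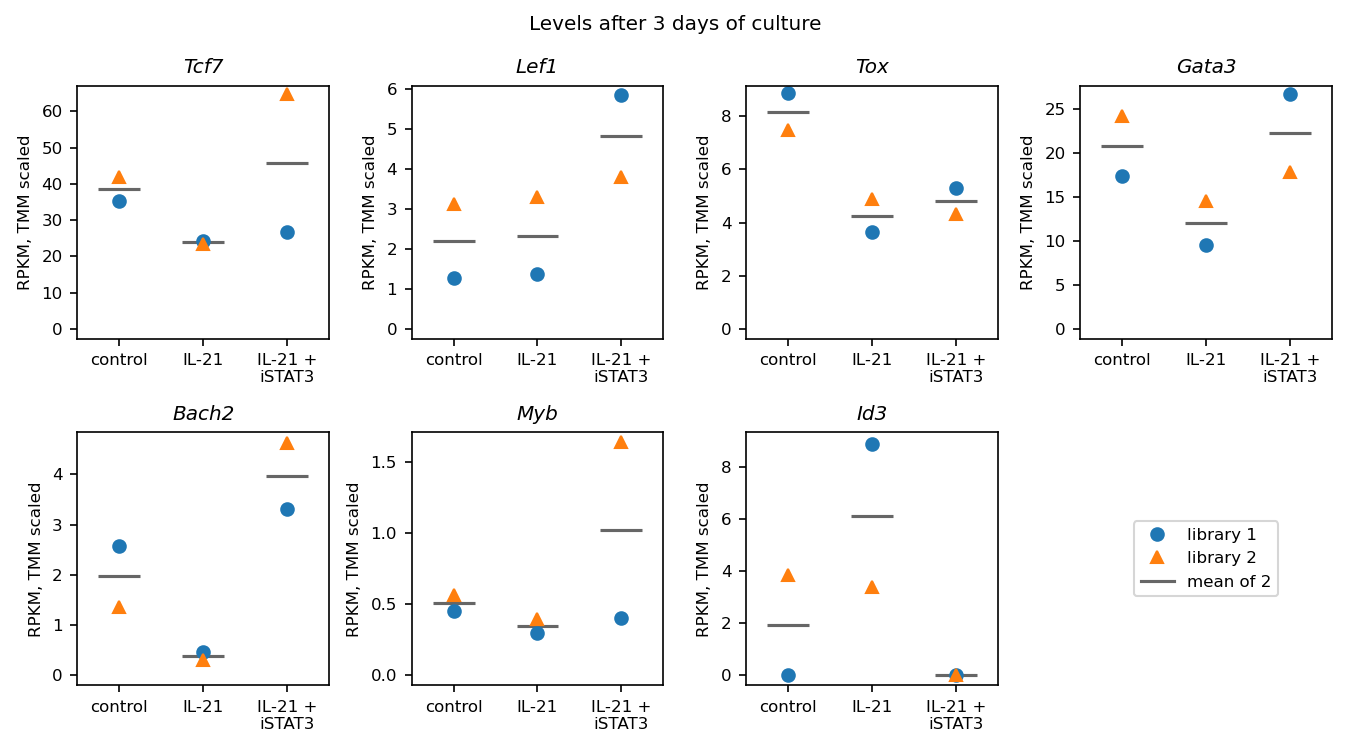
Levels of 7 transcription factors in RPKM (linear y axis) in trNK-V cells cultured without IL-21 (control), with IL-21, or with IL-21 and the STAT3 inhibitor, with 1 point per library and a line at the mean of 2. Bach2 is lowest with IL-21 (0.457 and 0.296) and highest with the inhibitor (3.32 and 4.62), and Id3 is at 0 in both inhibitor libraries.

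In the time course the 72 h libraries stood apart from the earlier ones, and the only call among the 7 tested genes involved them. The rank correlation between the 2 libraries of a group was 0.743 at 72 h without IL-21 and 0.832 with it, against 0.906 to 0.956 in the other groups. Of 14879 genes kept, 1716 were at 0 in 1 library and at 50 or more counts in the other at 72 h without IL-21, and 1281 with it, against 74 to 612 in the earlier groups.

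Tcf7 was at 9.71 and 8.84 RPKM at 0 h, 6.22 and 8.23 at 6 h, 12.4 and 9.78 at 24 h and 23.9 and 26.6 at 72 h without IL-21. With IL-21 it was at 7.39 and 10.1 at 0 h, 3.54 and 5.49 at 6 h, 7.27 and 4.83 at 24 h and 16.7 and 11.8 at 72 h. The libraries with IL-21 lay below those without at 6, 24 and 72 h and overlapped them at 0 h. None of these differences with IL-21 passed, and at 72 h the log2 value was -0.83 (SE 0.4, adjusted p = 0.286). Tcf7 was highest at 72 h in both arms, with a log2 difference from 24 h of 1.19 (SE 0.4, adjusted p = 0.105) without and 1.23 (SE 0.41, adjusted p = 0.166) with IL-21. Of 9 tested markers of cNK cells, 1 was called higher in the same step without IL-21 (Klra9, log2 1.44), against 7.68% of all genes called. With IL-21, 3 of 9 were called higher (Klra8, Klra9 and Klra4), against 2.31%. The summed level of the cNK markers was 4010 to 4050 RPKM at 24 h and 7380 to 9600 at 72 h without IL-21, and 2220 to 2780 and 5320 to 10100 with it. Of these 10 markers, 7 to 8 were detected at 24 h and 6 at 72 h without IL-21, and 7 and 8 with it. Summed NK markers were higher at 72 h as well, at 14800 to 15400 and 18200 to 19700 RPKM without IL-21 and 9740 to 11100 and 17200 to 27200 with it. Summed ILC1 markers without IL-21 were at 30.3 to 58.3 RPKM at 24 h and 18.1 to 121 at 72 h. With IL-21 they were at 33.1 to 35.6 and 135 to 147. Summed T cell markers were at 1550 to 1750 and 1590 to 2110 without IL-21, and at 1030 to 1140 and 1800 to 2270 with it. The part of cNK cells, ILC1 or T cells in the levels of Tcf7 and Tox was not tested.

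Tox was at 3.39 to 7.38 RPKM at 72 h without IL-21 and at 4.29 to 8.7 with it, against 1.8 to 3.61 in the 12 earlier libraries. The log2 difference from 24 h with IL-21 was 1.47 (SE 0.52, adjusted p = 0.2). Lef1 stayed between 0.639 and 2.17 RPKM and Gata3 between 0.921 and 3.48, with no unadjusted p below 0.05 for either. Gata3 was at 1.21 and 1.41 RPKM at 0 h without IL-21 and at 2.48 and 2.58 at 0 h with it, so these libraries did not overlap although the labels give them no time with the cytokine (log2 0.95, SE 0.69, adjusted p = 1).

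Myb was at 0.397 to 0.765 RPKM in the 12 libraries of 0, 6 and 24 h. At 72 h it was at 0 in both libraries without IL-21 and at 0.131 and 0 with it. The fall from 24 to 72 h without IL-21 was called (fitted log2 -10.65, adjusted p = 0.0143, edgeR), and against the floor of 3 counts per library Myb was at least 44-fold lower. The call was lost when only the libraries of these 2 groups were fitted (adjusted p = 0.16). This was 1 of the 7 genes tested, against 7.68% of all genes called in that comparison. Most calls there were falls, with 1008 of all 14879 genes called lower and 135 higher. With IL-21 the same step had a log2 value of -3.42 (SE 1.37, adjusted p = 0.293), which ranged from -11.14 to -2.42 over the alternatives. Genes of dividing cells moved with it, since 6 of 7 were called lower from 24 to 72 h without IL-21. Among them Mki67 was at 0 and 0.00927 RPKM at 72 h, against 5.17 to 9.72 before (adjusted p = 8.15e-06). The Myb relative Mybl1 was called lower as well (adjusted p = 0.0286), 1 of 9 relatives and partners of Bach2 and Myb tested. Their part in the level of Myb was not tested.

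Id3 was at 1.27 and 0.131 RPKM at 24 h without IL-21, at 0 in both libraries of 72 h and at 4.99 and 0 at 72 h with IL-21. Its other libraries lay between 0.378 and 1.93 RPKM. From 24 to 72 h without IL-21, Id3 was at least 11.9-fold lower against the floor (fitted log2 -8.76, adjusted p = 0.115), which did not pass. Bach2 was at 0.424 and 0.0892 RPKM at 6 h without IL-21 and at 0.0172 and 0.0104 with it, which put both IL-21 libraries below, but the spread between libraries was wide. At 72 h Bach2 was at 0.00784 and 5.19 RPKM without IL-21 and at 0.577 and 0 with it, so the groups overlapped and single libraries ran from 0 to the highest value of all 34. The log2 difference with IL-21 at 72 h was 7.7 (SE 2.14, adjusted p = 0.0704) for Myb and 10.6 (SE 3.13, adjusted p = 0.0854) for Id3, both set by a group at 0 and therefore dependent on the prior count of the fit. The means with IL-21 were 5.58-fold and 42.5-fold above the floor, in each case through library 1 alone. Library 2 with IL-21 was at 0 for both genes, so the groups overlapped and these values are no lower bounds. The fitted difference of the IL-21 effect between 72 and 6 h was 7.89 (adjusted p = 0.167) for Myb and 11.9 (adjusted p = 0.148) for Id3, and between 72 and 24 h it was 7.22 (adjusted p = 0.208) and 9.99 (adjusted p = 0.221). Over the alternatives the values for 72 against 6 h ranged from 0.19 to 8.94 and from 1.3 to 24.58. Those for 72 against 24 h ranged from -0.48 to 8.26 and from -0.61 to 22.71.

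For IL-21 against no IL-21, 0 of the 7 genes were called at 0, 6, 24 or 72 h in edgeR, against 0%, 0.0672%, 0.00672% and 5.07% of all genes. At an unadjusted p below 0.05 the counts of the 7 genes were 0, 0, 0 and 2, against 268, 669, 769 and 2895 of all 14879 genes. For the steps from 0 to 6 h and from 6 to 24 h, 0 were called, against 0% for both without IL-21 and 0.101% and 0.00672% with it. From 24 to 72 h with IL-21, 0 were called, against 2.31%. The difference of the IL-21 effect between times was not called for any of the 7, against 0% of genes for 24 against 6 h, 2.47% for 72 against 6 h and 2.43% for 72 against 24 h. DESeq2 called 12 of the 91 combinations of gene and comparison in the time course, against 1 in edgeR, and its share over all genes is not given here.

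Some early-state lymphocyte genes passed where the listed factors did not. From 0 to 6 h with IL-21, 3 of 16 were called lower, the receptor Kit (log2 -3.77), the chemokine Xcl1 (log2 -1.89) and the survival gene Bcl2 (log2 -1.88). Bcl2 was also called lower with IL-21 than without at 6 h (log2 -1.64, adjusted p = 0.0241), 1 of 16 tested. In the same step from 0 to 6 h with IL-21, Tcf7 had a log2 value of -0.96 with adjusted p = 0.734.

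**Figure D5:**
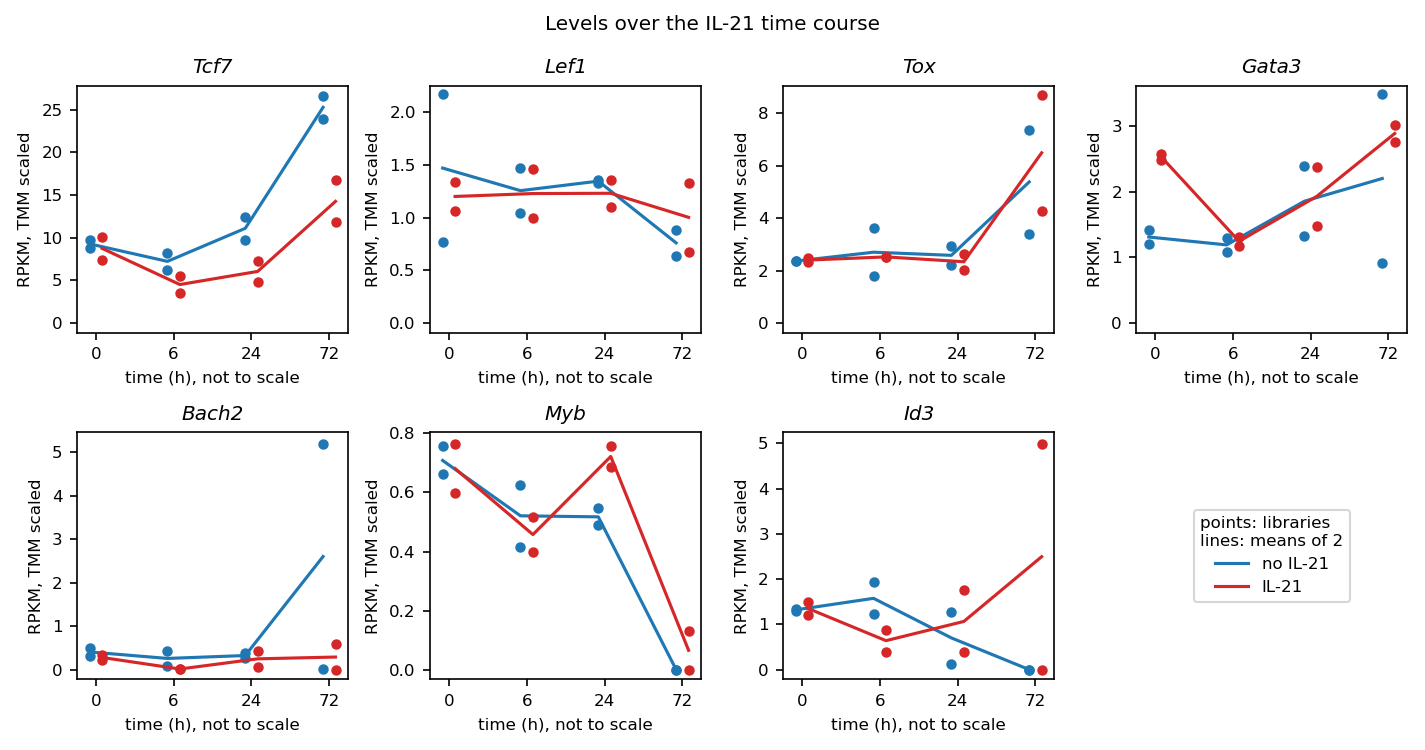
Levels of 7 transcription factors in RPKM (linear y axis) at 0, 6, 24 and 72 h of culture without and with IL-21, with 1 point per library, lines through the means of 2 and the times drawn evenly spaced, not to scale. Tcf7 reaches 23.9 and 26.6 at 72 h without IL-21 and 16.7 and 11.8 with it, while Myb is at 0 in 3 of the 4 libraries of 72 h and Bach2 runs from 0 to 5.19 among them.

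Over all 34 libraries, with each experiment centred on its own mean, Tcf7 and Tox were the most alike of the listed genes (Pearson r = 0.82 on log2 CPM). Tcf7 ran against Lef1 (r = -0.54) and Myb (r = -0.51), and Tox ran against Lef1 (r = -0.59) and Myb (r = -0.57). Gata3 followed Tcf7 (r = 0.45) and Tox (r = 0.46) more loosely. Lef1 and Myb had r = 0.48, and Myb and Id3 had r = 0.51. The libraries share experiments, groups and depth, so these values are descriptions with no p.

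Among the 11995 genes kept in all 4 experiments, those most like Tcf7 were Ifi203 (r = 0.91), Cd2 (r = 0.89) and Ms4a4b (r = 0.88), and those most like Tox were Gimap3, Ltb and Limd2 (r = 0.84 each). For Gata3 they were Arhgap45 (r = 0.77), Nr3c1 (r = 0.75) and Trrap (r = 0.74), and for Bach2 they were Btbd7 (r = 0.81), Pvt1 (r = 0.78) and Actn1 (r = 0.78). Myb was most like Brip1 (r = 0.95), Ercc8 (r = 0.95) and Tm7sf2 (r = 0.94), values to which the libraries at 0 contribute. Id3 was most like Gpd1l (r = 0.88), Hemgn (r = 0.79) and Lig3 (r = 0.79), and Lef1 was most like Gm6430 (r = 0.72), Ccng1 (r = 0.67) and Vcp (r = 0.67).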

How the data were processed

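Per the labels and the study's methods, bulk libraries were made from sorted cells with full-length cDNA kits, the time course with another kit than the rest. Per the submitters' processing notes, reads were aligned to mm10 with HISAT2 2.1.0 and counted with featureCounts, and the authors deposited raw counts per gene. The methods also name an RPKM filter, not applied in the deposited counts. The single-cell files hold UMI counts per cell, as deposited by the authors from a BD Rhapsody run, in 2 files with different genes of the same 15175 cells and no map from cells to conditions.

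Counts of each experiment were fitted separately with edgeR 4.0.16 (R 4.3.3) after filterByExpr and TMM, with the quasi-likelihood test and Benjamini-Hochberg adjustment over all genes kept (14040, 14335, 13647 and 14879). Symbols were given for 54353 of 54353 gene IDs. Likeness is Pearson's r on log2 CPM, each experiment centred. Single cells were clustered with Scanpy 1.11.5 (Python 3.11.15), without the listed genes, on 2000 variable genes and 20 components at resolution 0.8. A cluster took a class name from at least 3 markers at 3-fold, unless its leading genes went against it. The doublet caller marked 0 of 8909 cells and so did not work, and doublets remain in.

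Levels of every listed gene were given, fold changes for those called or at an unadjusted p below 0.05, and at most 3 called genes per gene list. The values of 1 gene of these lists are not reported here. The listed genes and the gene lists were chosen with earlier results of these data known. Alternatives were DESeq2 1.42.0, limma 3.58.1 (voom), other filters and scaling, a replicate block, leaving out each library, and other single-cell limits. The scripts were tested on simulated data. Chromatin (ATAC) libraries were not analysed here.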

Additional observations from a re-analysis of the deposited data

How the results depend on the processing

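The number of combinations of gene and comparison called in edgeR was 0 in the gestation experiment, 3 in the subsets, 0 in the culture and 1 in the time course. DESeq2 gave 2, 8, 4 and 12. Testing without a filter on low counts gave 3, 10, 3 and 5. In the time course limma voom gave 3 and a fit of only the groups compared 0. The RPKM filter gave 0, but of the listed genes it kept only Tcf7, so Myb was not tested under it. Leaving out the 72 h libraries, an alternative chosen after seeing the data, also gave 0, but it removes the comparison in which Myb was called. Leaving out each library in turn gave 0 to 5 in the gestation experiment (5 without virgin library 2), 0 to 3 in the subsets (0 without trNK-V library 2, 1 without trNK-T library 2), 0 to 0 in the culture and 1 to 8 in the time course (8 without library 2 and 3 without library 1 of 72 h with IL-21). Where that left a group with 1 library, it was assumed to vary like the others. For these alternatives the share of all genes called is not given. The counts therefore do not show whether the listed genes gained or lost more calls than other genes. The cause of these changes was not tested.

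Without library 1 of 72 h with IL-21, the log2 difference of the IL-21 effect between 72 and 24 h turned to -0.48 for Myb and to -0.61 for Id3, and leaving out each library in turn gave -0.48 to 8.26 and -0.61 to 11.55. The replicate block gave 0, 3, 0 and 1 calls. In the subsets it called Lef1 (adjusted p = 0.0324) and no longer Myb (adjusted p = 0.0521). Libraries with the same number showed little shared deviation (r from -0.1 to 0.2 over the 4 experiments). Such a check cannot show whether the numbers pair them, and the sources do not say. Other upper limits and another resolution left 6 or 7 of the 8 genes, and 6 in the report, with an interval in T cell-like cells wholly above that in terminal trNK-like cells, and put Tcf7 in terminal trNK-like cells at 1.89 to 27.3 CPM. Of 160 single-cell levels 68 moved beyond their counting interval, 35 of them with limits on UMIs, where Tcf7 was no longer lowest in terminal trNK-like cells. Each group has 2 libraries, which limits the precision of every value.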
